A study of Rattus norvegicus with 421 samples.

Results

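The liver response of rats to 1,4-dichlorobenzene (DCB), a chlorinated benzene used as a moth repellent and deodorant block, was followed over 4 dosing times. Its members are the 12 arrays whose labels give DCB at 300 mg/kg, 3 each at days 1, 3, 7 and 14, beside 409 other arrays in the series. They were set against the 12 arrays of the corn oil vehicle group CO_1A (0 mg/kg), 3 each on the same days.

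All animals were males of the Wistar Hanover stock, coded Crl:WI[Gl/BRL/Han]IGS BR, 8 to 10 weeks old when dosing began, and no genetic modification is given. DCB or corn oil was given daily by gastric gavage in 5 ml per kg of body weight. Each dose group had 5 rats, of which 3 were chosen on histopathology for arrays, with 1 array per animal from liver taken 1 day after the last dose. The choice on histopathology limits how far each trio stands for its group, and every day has other animals. For comparison, phenobarbital (PB, 80 mg/kg) was given in carboxymethylcellulose with the vehicle group CMC_1B, and cyproterone acetate (CPA, 100 mg/kg) in corn oil with the same CO_1A vehicle arrays as DCB. Each of these had 3 arrays a day on the same 4 days.

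Expression was read on a 3'-biased rat array with 15866 probe sets, a probe set being the group of short probes that reports 1 transcript. All values are log2 levels, so a difference of 1 is a doubling. The 24 DCB and CO_1A arrays had medians of 7.42 to 7.49 and pairwise correlations of 0.9915 to 0.9964, and no pair was identical. The mean level of 11 hepatocyte markers was 13.60 to 13.72 in the DCB arrays and 13.61 to 13.74 in the vehicle arrays. Muscle markers (5.73 to 5.94 in DCB, 5.76 to 5.88 in vehicle) and pancreas markers (6.51 to 6.65 in DCB, 6.49 to 6.63 in vehicle) stayed low in all of them.

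The liver meets a foreign compound through nuclear receptors that switch on the genes of its removal. CAR and PXR, which work as partners of RXR, raise cytochromes P450 of the CYP2B and CYP3A families, conjugating enzymes and export pumps, and PB is the classical activator of CAR in rodents. NRF2 raises glutathione enzymes under electrophilic or oxidative stress. PPARA, the receptor of fibrates and other peroxisome proliferators, raises the enzymes of fatty acid uptake and oxidation.

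The promoter sequences of 4 genes that carry the results are given first, from RefSeq on the rat build GRCr8. The windows ran from 250 bases before to 50 bases after the start site, and those of Cyp2b1 and Cyp2b2 are given in part. Cyp2b1 (chr1:90645886-90646168, plus strand) and Cyp2b2 (chr1:90722031-90722313, plus strand) encode the P450 enzymes of the PB response. They share 1 probe set on the array, so their levels cannot be told apart here. Set beside each other without gaps over the 283 bases that they share, 275 (97.2%) are identical, and the 8 that differ are in capitals. The first 17 bases of the Cyp2b1 window and the last 17 of the Cyp2b2 window are left out. Aligned bases therefore differ by 17 in their distance from the start site.
Cyp2b1: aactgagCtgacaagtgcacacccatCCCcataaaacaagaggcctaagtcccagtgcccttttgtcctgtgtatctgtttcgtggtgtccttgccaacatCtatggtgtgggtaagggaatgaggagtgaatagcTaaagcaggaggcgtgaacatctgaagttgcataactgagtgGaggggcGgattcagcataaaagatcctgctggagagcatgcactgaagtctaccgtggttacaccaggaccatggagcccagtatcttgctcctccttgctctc
Cyp2b2: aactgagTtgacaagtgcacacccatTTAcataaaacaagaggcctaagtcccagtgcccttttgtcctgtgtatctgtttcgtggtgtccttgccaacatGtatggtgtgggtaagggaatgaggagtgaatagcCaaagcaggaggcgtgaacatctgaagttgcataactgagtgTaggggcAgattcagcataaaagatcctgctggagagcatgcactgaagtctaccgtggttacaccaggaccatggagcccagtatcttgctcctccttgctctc
The promoter of Gsta3, a glutathione S-transferase, lies at chr9:31154739-31155038 (plus strand). Capitals mark a match to TGACNNNGCA, the core of the antioxidant response element bound by NRF2, which begins 17 bases before the start site.
Gsta3: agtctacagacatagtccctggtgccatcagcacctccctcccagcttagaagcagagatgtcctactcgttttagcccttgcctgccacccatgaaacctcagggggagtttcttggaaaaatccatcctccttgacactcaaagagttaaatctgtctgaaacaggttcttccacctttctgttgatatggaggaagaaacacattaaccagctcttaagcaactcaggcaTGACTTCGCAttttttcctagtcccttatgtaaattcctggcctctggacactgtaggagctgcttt
The promoter of Eci1, an isomerase that handles double bonds in fatty acid oxidation, lies at chr10:13961000-13961299 (plus strand). Capitals mark AGGTCA on the minus strand (read here as TGACCT), the hexamer used by RXR partners such as PPARA and CAR, 94 bases before the start site.
Eci1: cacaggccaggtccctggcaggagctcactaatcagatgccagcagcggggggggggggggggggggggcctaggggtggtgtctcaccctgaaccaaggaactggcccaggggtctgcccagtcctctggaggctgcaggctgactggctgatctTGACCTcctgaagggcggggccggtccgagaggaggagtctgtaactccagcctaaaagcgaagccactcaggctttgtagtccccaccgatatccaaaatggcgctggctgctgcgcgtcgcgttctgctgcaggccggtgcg
Both motifs were searched on both strands, and they do not overlap in these windows. Of the 26 genes called higher at day 14 or over the 4 days by the rule given below, 20 had a promoter in the table, and 3 of them (15%) held TGACNNNGCA (Gsta3, Gclm and Glyatl2), against 1003 of all 33469 promoters (3.0%). AGGTCA was in 3 of the 20 (15%, Eci1, Cyp3a23-3a1 and Por), against 5415 of all 33469 (16.2%). The 20 were counted with 1 promoter per gene, but the 33469 were not limited to 1 per gene or to genes on the array. The shares are therefore of unlike sets. A match describes the letters of the window and is not a site shown to be used.

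Against the CO_1A vehicle the fewest probe sets were called at day 1 and the most at day 14. Among genes, the largest rises over the 4 days were in drug metabolism and fatty acid oxidation. A probe set was called where the limma fit gave a Benjamini-Hochberg adjusted p under 0.05 over all 15866 probe sets and a change of at least 1.5-fold. At day 1, 3 probe sets were called (0.0189% of those tested), 1 higher and 2 lower. At day 3 there were 15 (0.0945%), 14 of them higher, and at day 7 there were 8 (0.0504%), all higher. At day 14 there were 32 (0.202%), all higher. This order of days depends on the vehicle group, since against CO_1M, another corn oil group, the counts were 56, 33, 26 and 50, with day 1 the highest. Without the adjustment, 1069, 1074, 976 and 1219 probe sets had a p under 0.05 at days 1, 3, 7 and 14. Over the mean of the 4 days, 12 DCB against 12 vehicle arrays, 23 probe sets were called (0.145%), 17 higher and 6 lower. All 23 had 1 sign on the 4 days, but they were chosen on the mean of those days. The shared sign is therefore no separate evidence of a lasting change.

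In all 37 probe sets were called on at least 1 day, 23 of them on 1 day, 7 on 2 days, 7 on 3 days and 0 on all 4. The 32 of day 14 had median changes of 0.25, 0.61, 0.56 and 0.93 at days 1, 3, 7 and 14. Since they were chosen at day 14, the last of these is no evidence of growth with time. Of these 32, 28 had a positive change at day 1 and all 32 at days 3 and 7. The test of a difference between the daily changes (a moderated F test) passed for 2 probe sets (0.0126%), those of Ces2c and Abcc3.

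CAR and PXR targets of oxidation were led by the Cyp2b1/Cyp2b2 probe set. Its levels in DCB livers were 12.54, 12.41 and 12.62 at day 1, 13.85, 13.90 and 14.12 at day 3, 13.84, 14.06 and 13.80 at day 7, and 14.23, 13.96 and 14.09 at day 14. In vehicle livers they were 10.48, 11.49 and 11.37 at day 1, 10.50, 11.49 and 11.28 at day 3, 11.32, 10.96 and 11.14 at day 7, and 10.44, 10.90 and 11.53 at day 14. Every DCB array was above every vehicle array on each day, and the DCB arrays of day 1 were the lowest of the DCB arrays. The change was 1.41 at day 1 (adjusted p = 0.227), 2.87 at day 3 (1.1e-07), 2.76 at day 7 (2.7e-07) and 3.14 at day 14 (4.8e-10), each ± 0.40 (SE). At day 14 that is 8.80-fold. Whether Cyp2b1, Cyp2b2 or both carried it cannot be said from a shared probe set.

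Aldh1a1, a retinal dehydrogenase that PB induces in rat liver, was at 11.58, 10.41 and 11.12 in DCB livers and 8.63, 9.24 and 10.06 in vehicle livers at day 1. At day 14 it was at 12.49, 12.75 and 12.35 in DCB livers and 9.93, 9.64 and 8.88 in vehicle livers. The groups did not overlap on either day, but the vehicle arrays spread over more than a doubling on both. The change was 1.73, 1.91, 2.01 and 3.04 (each ± 0.47) at days 1, 3, 7 and 14, and it was called from day 3 on (adjusted p = 0.036 at days 3 and 7, 7.6e-07 at day 14). The calls of days 3 and 7 were lost without any 1 of their 6 arrays. Aldh1a1 has a close paralogue, Aldh1a7, whose part in the signal was not tested.

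Over the list of oxidation targets, 13 of 19 genes were measured by a probe set of their own. Over the 4 days 5 of the 13 rose at an adjusted p under 0.05 and 0 fell. Of all 10411 genes, 2.03% rose and 1.21% fell by that rule. The median change of the 13 was 0.165, against 0.008 over all genes. Besides Aldh1a1 (2.17 ± 0.23) these were Por, the reductase that feeds electrons to P450 enzymes (0.58 ± 0.11), Cyp3a23-3a1, a steroid-oxidizing P450 (0.44 ± 0.08), Cyp2c6v1 (0.32) and Cyb5a, cytochrome b5 (0.27). Only Aldh1a1 also passed the fold minimum over the 4 days, against 0.125% of all genes called higher. Cyp2b3 (-0.13), Cyp2c7 (-0.01) and Cyp3a18 (-0.03) did not pass the test.

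**Figure D1:**
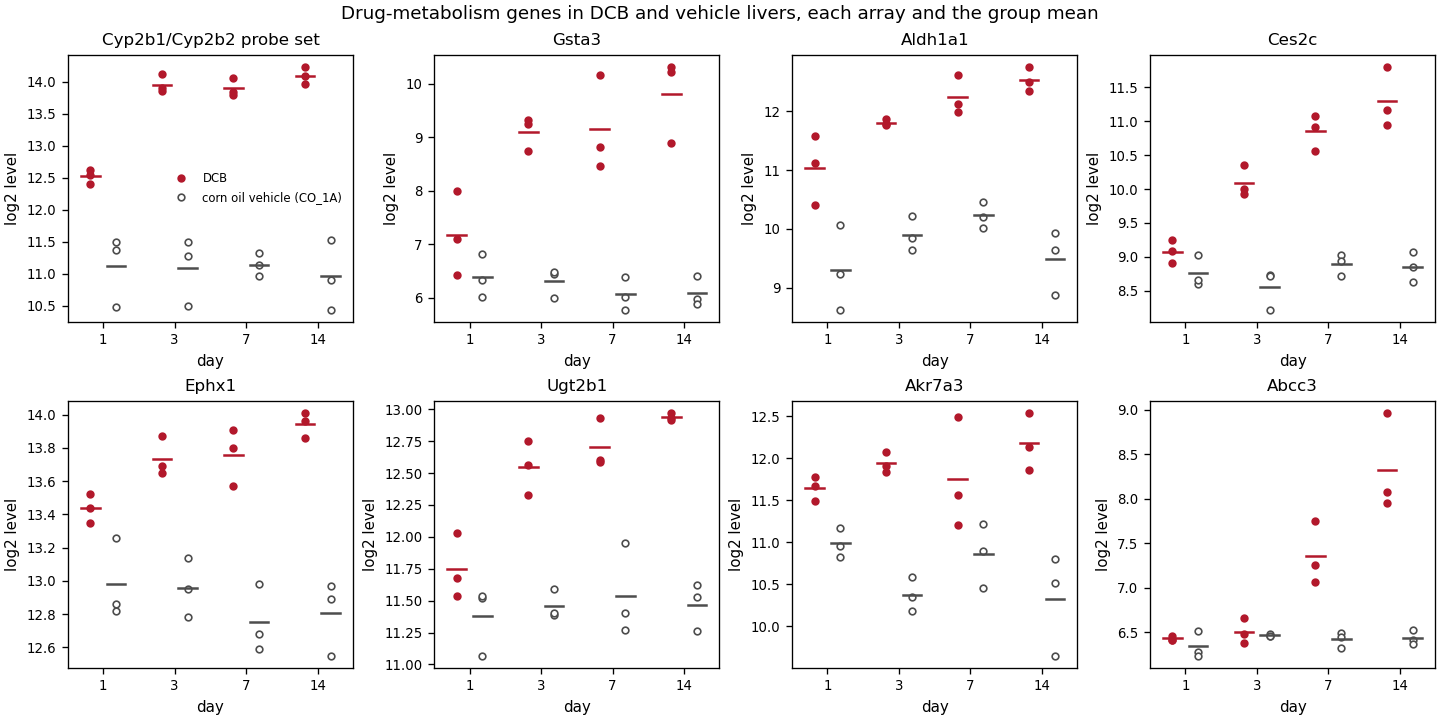
Log2 level (y axis, own scale per panel) of 8 drug-metabolism probe sets by day of dosing (x axis), DCB filled and corn oil vehicle (CO_1A) open, each point 1 array and each bar the mean of 3 arrays. The Cyp2b1/Cyp2b2 levels of DCB livers lay above vehicle on every day, and for Abcc3 all 3 DCB arrays lay above vehicle at days 7 and 14 only, reaching 7.95 to 8.96 at day 14.

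Among the enzymes of hydrolysis and conjugation, Gsta3, Ces2c, Ugt2b1 and Ephx1 rose in DCB livers. Gsta3 had the largest change of the course. It was at 7.09, 6.42 and 7.99 in DCB livers and 6.02, 6.82 and 6.34 in vehicle livers at day 1, where the groups overlapped. At day 3 it was at 8.74, 9.24 and 9.32 in DCB livers and 5.99, 6.45 and 6.48 in vehicle livers, and at day 14 at 10.31, 10.22 and 8.90 in DCB livers and 5.98, 6.40 and 5.89 in vehicle livers. The change was 0.77 (adjusted p = 0.854), 2.79 (0.00042), 3.09 (1.9e-05) and 3.72 (1.3e-08) at days 1, 3, 7 and 14, each ± 0.51, or 13.2-fold at day 14.

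Ces2c, a carboxylesterase that splits ester drugs and lipids, climbed in steps. In DCB livers it was at 9.24, 9.08 and 8.90 at day 1, 10.00, 9.92 and 10.36 at day 3, 10.91, 11.08 and 10.56 at day 7, and 11.80, 11.16 and 10.95 at day 14. In vehicle livers it was at 8.59, 8.66 and 9.02 at day 1, 8.73, 8.22 and 8.71 at day 3, 9.02, 8.93 and 8.71 at day 7, and 9.07, 8.85 and 8.62 at day 14. The groups overlapped at day 1 and were apart from day 3 on. The change was 0.32 at day 1 (adjusted p = 0.869), 1.54 at day 3 (2.6e-07), 1.96 at day 7 (4.0e-12) and 2.46 at day 14 (3.3e-19), each ± 0.23, and it differed between days (adjusted p of the F test = 5.6e-06). The change at day 14 was 2.14 ± 0.32 above that at day 1.

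Ugt2b1, a glucuronosyltransferase, was at 12.93, 12.97 and 12.92 in DCB livers and 11.62, 11.53 and 11.26 in vehicle livers at day 14. Its daily changes were 0.37, 1.09, 1.17 and 1.47 (adjusted p = 0.0021 at day 14), and over the 4 days it rose by 1.02 ± 0.15. Ephx1, the microsomal epoxide hydrolase, was at 13.86, 14.01 and 13.96 in DCB livers and 12.55, 12.89 and 12.97 in vehicle livers at day 14. It was already high in vehicle livers and the groups were apart on all 4 days. Its changes were 0.46, 0.78 (adjusted p = 0.0056), 1.01 (1.6e-05) and 1.14 (9.9e-08).

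Over the conjugation list, 20 of 28 genes were measured. Of these 10 rose over the 4 days at an adjusted p under 0.05 and 0 fell, 4 of them by at least 1.5-fold. Of all genes, 2.03% rose and 1.21% fell by the adjusted p alone, and 0.125% were called higher. The median of the 20 was 0.251, against 0.008 over all genes. Beside the 4 named, those that rose were the transferases Gstt3 (0.57), Gstm1 (0.29), Gsta1 (0.26) and Gstt1 (0.22), the sulfotransferase Sult1b1 (0.24), and Ugdh, which makes the sugar donor of glucuronidation (0.34). Sult1a1 (-0.13), Sult2a1 (-0.05) and Papss2 (-0.18) did not pass the test. Glutathione S-transferases of this kind share sequence, so signal may be split between neighbours. Both shared probe sets that hold such families moved the same way. That of Gsta2 and Gsta5 rose by 0.72 ± 0.08, and that of the UGT1A family, whose members share their last exons, by 0.51 ± 0.07.

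Of 11 hepatic transporters Abcc3 alone passed the test over the 4 days. Abcc3 (MRP3) is a pump of the sinusoidal membrane that returns glucuronides to the blood. In DCB livers it was at 6.42, 6.42 and 6.46 at day 1 and 6.38, 6.48 and 6.66 at day 3, against 6.28, 6.52 and 6.24 at day 1 and 6.46, 6.48 and 6.46 at day 3 in vehicle livers. At day 7 it was at 7.26, 7.75 and 7.07 in DCB livers and 6.33, 6.49 and 6.45 in vehicle livers, and at day 14 at 8.07, 8.96 and 7.95 in DCB livers and 6.53, 6.41 and 6.37 in vehicle livers. The groups overlapped at days 1 and 3 and were apart at days 7 and 14. The change was 0.09, 0.04, 0.94 (adjusted p = 0.017) and 1.89 (4.1e-14), each ± 0.20. It differed between days (adjusted p of the F test = 1.3e-06), with day 14 above day 1 by 1.80 ± 0.29. The call of day 7 was lost without 5 of its 6 arrays, with a lowest value of 0.74.

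Of the genes that encode the receptors and their partners, 10 were measured, and 0 passed the test over the 4 days. The change was 0.01 for Nr1i3, which encodes CAR, and -0.04 for Nr1i2, which encodes PXR. Of 6 AHR targets measured, 0 passed. The change was 0.12 for Cyp1a1 and 0.12 for Cyp1a2, P450 enzymes raised by dioxin-like ligands.

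NRF2 targets rose in part. Of 22 measured genes of 28 listed, 10 rose over the 4 days at an adjusted p under 0.05 and 0 fell. Of all genes, 2.03% rose and 1.21% fell by that rule. The median of the 22 was 0.238, against 0.008 over all genes. Gsta3 and Me1 stand in this list as well as in another, so its count is not independent of the conjugation and PPARA lists. Akr7a3, an aldo-keto reductase that detoxifies aflatoxin dialdehyde in the rat, was at 11.91, 11.84 and 12.08 in DCB livers and 10.59, 10.35 and 10.18 in vehicle livers at day 3. At day 14 it was at 12.14, 12.54 and 11.86 in DCB livers and 9.65, 10.52 and 10.80 in vehicle livers. The groups were apart on both days, and the change was 0.66, 1.57 (adjusted p = 0.004), 0.90 and 1.85 (3.3e-05), each ± 0.32.

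Glutathione genes moved less. Gclm, the modifier subunit of the enzyme that starts glutathione synthesis, was at 10.44, 10.52 and 10.55 in DCB livers and 9.92, 9.29 and 9.54 in vehicle livers at day 14 (0.92, adjusted p = 0.0054). Gsr, which regenerates glutathione, rose by 0.56 over the 4 days, and Gclc, the catalytic subunit, by 0.36. Srxn1 (0.39), Txnrd1 (0.28), Akr7a2 (0.30) and Aox1 (0.30) rose by amounts under the fold minimum. Nqo1 (0.47), Hmox1 (-0.11) and Gstp1 (-0.03) did not pass the test, although Nqo1 and Hmox1 are widely used marks of NRF2 activity.

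PPARA targets rose as a broad, mostly small change. Of 37 measured genes of 43 listed, 20 rose over the 4 days at an adjusted p under 0.05, 0 fell, and 31 had a positive change, with a median of 0.248 against 0.008 over all genes. Of all genes, 2.03% rose and 1.21% fell by that adjusted p. By the rule with the fold minimum, 6 of the 37 were called (Eci1, Vnn1, Me1, Ehhadh, Ech1 and Cd36), against 0.125% of all genes called higher. The call of Cd36 was lost without 5 single arrays, where its change was 0.515 to 0.585.

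Eci1 was the only gene called higher at day 1. Its levels in DCB livers were 12.91, 12.77 and 12.63 at day 1, 12.56, 12.54 and 12.12 at day 3, 12.08, 12.36 and 11.37 at day 7, and 12.12, 12.43 and 12.14 at day 14. In vehicle livers they were 11.69, 11.71 and 11.71 at day 1, 11.33, 10.58 and 10.33 at day 3, 11.24, 10.94 and 11.29 at day 7, and 11.01, 10.93 and 11.03 at day 14. The groups were apart on every day, though at day 7 the lowest DCB array stood close to the highest vehicle array. The change was 1.07 at day 1 (adjusted p = 0.049), 1.66 at day 3 (1.4e-07), 0.78 at day 7 (0.419) and 1.24 at day 14 (0.00027), each ± 0.24, and 1.19 ± 0.12 over the 4 days (4.9e-17). A dimmer probe set of Eci1 changed by 0.02 (adjusted p = 0.871) over the 4 days, so the result rests on the brighter one. The call of day 1 was lost without any 1 of its 6 arrays (0.998 to 1.14).

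Ehhadh, the bifunctional enzyme of peroxisomal fatty acid oxidation, was at 11.62, 11.92 and 11.96 in DCB livers and 10.84, 10.81 and 10.60 in vehicle livers at day 3 (1.09, adjusted p = 0.012). Over the 4 days it rose by 0.77 ± 0.12 (6.2e-07). Ech1, a dienoyl-CoA isomerase of peroxisomes and mitochondria, was at 11.10, 11.30 and 10.99 in DCB livers and 10.42, 10.42 and 10.34 in vehicle livers at day 14. Its daily changes of 0.65, 0.79, 0.55 and 0.74 were close to each other, and over the 4 days it rose by 0.68 ± 0.10 (2.3e-07).

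Other mitochondrial proteins of the pathway, named next, moved by less than 1.5-fold. Hadhb, a subunit of the trifunctional protein, rose by 0.44 ± 0.06, and its partner Hadha by 0.25. Slc25a20, the carnitine carrier of the inner membrane, rose by 0.37 ± 0.05 and Cpt2 by 0.40, whereas Cpt1a, the rate-setting step of entry, was at 0.03 and did not pass the test. Among the omega-oxidizing P450 enzymes, Cyp4a3 rose by 0.53 and Cyp4a1 by 0.39 ± 0.11 (adjusted p = 0.029). The PPARA targets Pdk4 (0.02), Fgf21 (-0.22), Angptl4 (-0.26) and Plin2 (-0.19) did not pass the test.

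**Figure D2:**
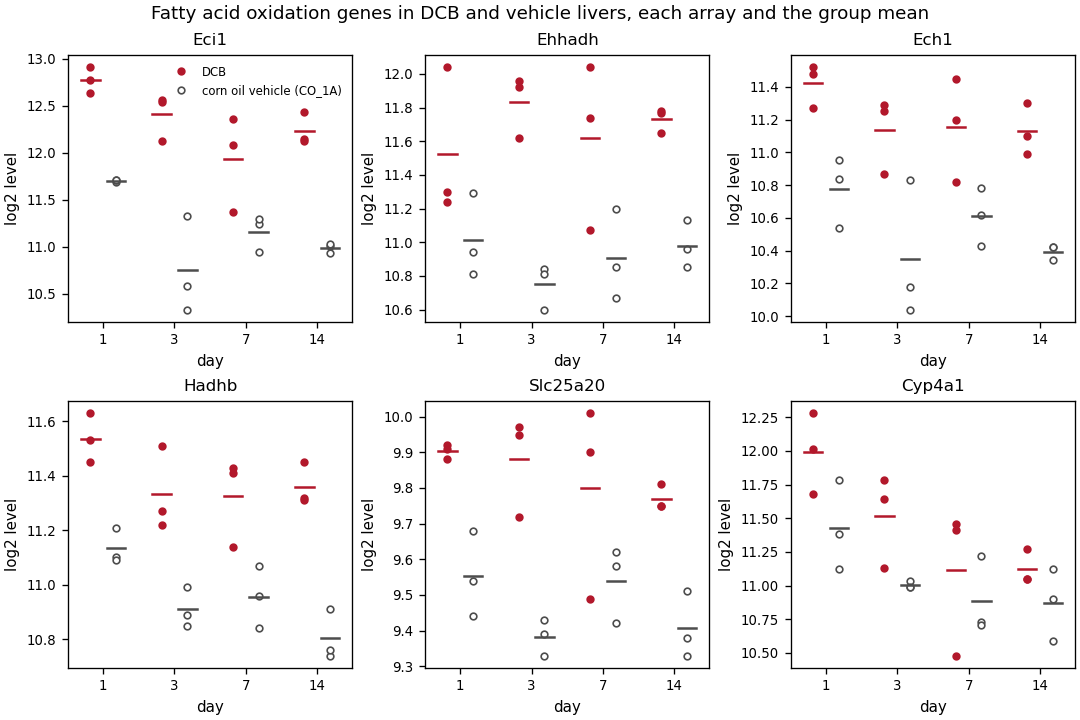
Log2 level (y axis, own scale per panel) of 6 fatty acid oxidation genes by day of dosing (x axis), DCB filled and corn oil vehicle (CO_1A) open, each point 1 array and each bar the mean of 3 arrays. Eci1 was apart from vehicle on every day, while the lowest DCB array of day 7 lay within or near the vehicle arrays in several panels, such as 11.37 for Eci1.

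The lowest DCB array of day 7 in Eci1, Ehhadh and Ech1 was the same animal, array 3 (11.37, 11.07 and 10.82), and it also had the lowest Gsta3 (8.47), Ces2c (10.56) and Abcc3 (7.07) of that day. Only Cd36, Vnn1 and Me1 among the called PPARA targets passed at day 14 beside Eci1. Cd36, a fatty acid uptake receptor, was at 9.38, 8.72 and 7.82 in DCB livers and 7.50, 7.29 and 6.97 in vehicle livers at day 14 (1.39, adjusted p = 7.3e-05). Vnn1, a pantetheinase, was at 8.03, 7.86 and 7.78 in DCB livers and 6.26, 6.37 and 6.48 in vehicle livers on that day (1.52, adjusted p = 0.0036). Me1, malic enzyme, which supplies NADPH, was at 10.04, 10.08 and 9.95 in DCB livers and 8.45, 8.89 and 8.87 in vehicle livers (1.28, adjusted p = 0.0082). The 3 genes had their largest daily change at day 14, but a difference between days did not pass the test for any of them.

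Counted by gene, 24 of 10411 were called higher at day 14 (0.231%), with changes of 0.61 to 3.72. In all 24 every DCB array lay above every vehicle array, but the genes were called on these same arrays. The share of all genes so separated was not counted, so the separation adds no support to the calls. Of the 24 genes, 3 were in the list of oxidation targets, 5 in that of conjugation, 5 in that of NRF2 targets and 4 in that of PPARA targets. A gene can stand in more than 1 list. Genes outside all of these lists included Abcc3 and Glyatl2, named above. Further examples were Cers6, a ceramide synthase (0.84), Hibch, an enzyme of valine breakdown (0.69), and Entpd5, a nucleotidase of the endoplasmic reticulum (0.70). Reep6, which shapes that membrane (0.94), and Psma1, a proteasome subunit (0.63), were also outside, and not all such genes are named. The examples from Cers6 to Psma1 were named after their values were seen.

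Falls were fewer and smaller. Over the 4 days 6 genes were called lower. Fabp5, a fatty acid binding protein, fell by 1.00 ± 0.21 (adjusted p = 0.00078), at 8.74, 9.30 and 8.61 in DCB livers and 10.07, 10.47 and 10.75 in vehicle livers at day 14. Pklr, the pyruvate kinase of liver glycolysis, fell by 0.74 ± 0.15 (0.00018), at 9.98, 9.67 and 10.12 in DCB livers and 10.47, 10.96 and 10.84 in vehicle livers at day 14, where the groups were apart. Its second probe set was at -0.55. Dusp1, a phosphatase that ends MAP kinase signals, fell by 0.77 ± 0.20 (0.014) and Nupr1, a stress-induced nuclear protein, by 0.74 ± 0.18 (0.0045). A dimmer probe set of Dusp1 was at -0.58 and did not pass the test (adjusted p = 0.078). Oat, ornithine aminotransferase, fell by 0.59 ± 0.17 (0.025).

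C8b, a complement component made in the liver, fell by 0.68 ± 0.20 (adjusted p = 0.036). Its lower DCB arrays were 2 of day 3 (10.53 and 10.45) and 1 of day 14 (10.29), while the other 9 lay between 11.45 and 12.02. At day 3 the vehicle arrays were at 12.31, 11.71 and 11.68. The calls of C8b and Oat were lost when some single arrays were left out.

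At day 1 and day 3, 3 genes were called lower on a single day, and the test of a difference between days passed for none of them. At day 1 Tsc22d3, a leucine zipper protein induced by glucocorticoids, was at 8.70, 8.86 and 8.81 in DCB livers and 9.88, 10.35 and 9.94 in vehicle livers (-1.27 ± 0.29, adjusted p = 0.049). Its later changes were -0.40, -0.49 and -0.01, and over the 4 days it fell by 0.54 (0.015). Lpin1, a phosphatidate phosphatase, was at 8.37, 8.60 and 8.88 in DCB livers and 9.06, 9.69 and 10.80 in vehicle livers on that day (-1.24, adjusted p = 0.049). Without the vehicle array at 10.80 the Lpin1 change was -0.76 (adjusted p = 0.835). The call of Tsc22d3 was lost without any 1 of its 6 arrays, although its change stayed at -1.36 to -1.12. At day 3 Icoslg, a ligand of T cell co-stimulation, was at 8.82, 9.33 and 8.94 in DCB livers and 9.89, 9.57 and 9.66 in vehicle livers (-0.67, adjusted p = 0.035). Its other daily changes were -0.16, -0.37 and -0.22 at days 1, 7 and 14, and over the 4 days it fell by 0.36 (0.0025), under the fold minimum. A dimmer probe set of Icoslg changed by -0.01 at day 3 and -0.03 over the 4 days, neither past the test. The fall of Icoslg therefore rests on the brighter one.

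Most genes of cell division lay slightly above vehicle at day 1, with none past the test, and a difference between days was not tested for a list. Of 19 measured genes of mitosis, 19 had a positive change at day 1 (median 0.248), 13 at day 3 (0.090), 4 at day 7 (-0.135) and 2 at day 14 (-0.163). Of 20 genes of DNA replication, 19 had a positive change at day 1 (median 0.169), 17 at day 3 (0.121), 8 at day 7 (-0.022) and 10 at day 14 (0.000). Over all 10411 genes 5999 were positive at day 1 (median 0.021) and 4741 at day 14 (-0.011). No gene of either list passed the test on any 1 day. Without DCB array 3 of day 1 the mitosis median of that day was 0.160, and without other single arrays it was 0.210 to 0.333, with 19 of 19 positive each time. The direction of days 3 and 7 rested on 1 vehicle array each. Without CO_1A array 1 of day 3 the mitosis median was -0.058 (8 of 19 positive), and without CO_1A array 1 of day 7 it was 0.065 (13 of 19), with 17 of 20 replication genes positive (0.055). At day 14 the mitosis median was -0.213 to -0.093 without single arrays. Genes of such a list move together and do not count as independent. Cks2, a subunit of the cyclin-dependent kinases, was at 8.73, 8.65 and 9.01 in DCB livers and 8.28, 8.14 and 8.35 in vehicle livers at day 1, and at 8.23, 8.47 and 8.44 in DCB livers and 8.38, 8.61 and 8.64 in vehicle livers at day 14. Cdk1, which drives entry into mitosis, was at 6.90, 7.12 and 7.73 in DCB livers and 7.10, 6.81 and 6.88 in vehicle livers at day 1. The groups of Cks2 were apart at day 1 (adjusted p = 0.597), and those of Cdk1 overlapped (0.925). Over the 4 days 1 gene of replication, Mcm2, passed the test (0.25).

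Other lists gave few calls. Of 18 genes of cholesterol synthesis and uptake, 0 passed over the 4 days, although 4 were positive at day 1 (median -0.095) and 16 at day 14 (0.301). Of 14 p53 targets, 0 passed. Of 15 genes of glucose metabolism, 2 fell, Pklr and Slc2a2. Of 21 acute phase proteins 3 fell, by 0.20 (Serpina3m), 0.11 (Itih3) and 0.10 (Ambp). By the adjusted p alone, 1.21% of all genes fell. Markers of macrophages had a median change of -0.435 at day 3, with 1 of 10 positive and 0 past the test (-0.259 without DCB array 3 of that day), and their mean level over the whole course was 8.99 to 9.65 in DCB arrays and 9.35 to 9.88 in vehicle arrays. In bulk liver, fewer cells of a type and less RNA per cell cannot be told apart. The part of cell makeup in the falls of day 3 was not tested.

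**Figure D3:**
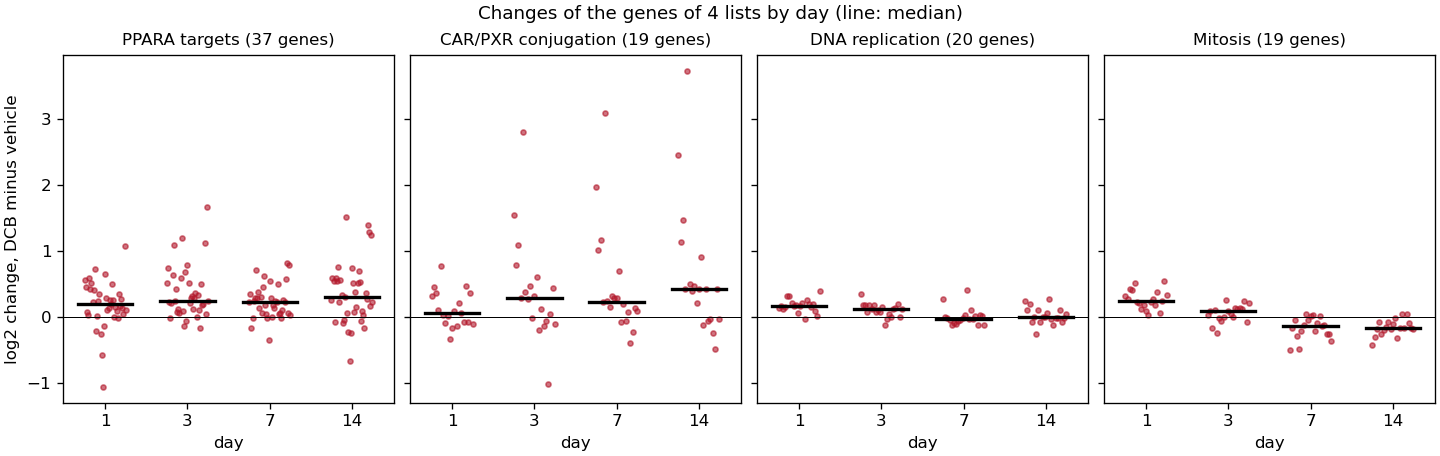
Log2 change of DCB against its vehicle (y axis) for each gene (point) of 4 lists by day (x axis), with the list median as a black line. The conjugation panel holds 19 of the 20 measured genes, without Ugt2b, and the medians of mitosis genes run from 0.248 at day 1 to -0.163 at day 14.

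PB, whose receptor is known, was the compound to compare with, each against its own vehicle and day, at 300 mg/kg DCB and 80 mg/kg PB. Doses and vehicles differ, so the sizes cannot be matched. Over the 4 days 70 of all 15866 probe sets were called in PB, and 16 were called in both PB and DCB in the same direction. That is 69.6% of the 23 of DCB and 22.9% of the 70 of PB, with 0 in opposite directions. In CPA 365 of the 15866 were called over the 4 days. Their overlap with DCB was not counted, so a likeness particular to PB is not shown. A direct test of the difference, (DCB minus CO_1A) minus (PB minus CMC_1B), called 12 probe sets (0.0756%), 5 higher and 7 lower in DCB. At an adjusted p under 0.05 alone, 0.182% of all genes were higher and 0.182% lower in DCB than in PB.

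The Cyp2b1/Cyp2b2 probe set changed by 1.41, 2.87, 2.76 and 3.14 in DCB livers and 2.90, 2.48, 2.86 and 2.86 in PB livers at days 1, 3, 7 and 14. Over the 4 days the difference was -0.23, with a 95% interval of -0.79 to 0.32 (adjusted p = 0.911). For Gsta3 it was 0.16 (-0.56 to 0.87) and for Akr7a3 0.10 (-0.34 to 0.55), neither past the test. These 3 intervals stay within a doubling either way. For Aldh1a1, at 2.17 in DCB and 3.27 in PB, the difference was -1.10 (-1.75 to -0.45), which did not pass the test (adjusted p = 0.154).

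Some CAR and PXR targets rose less in DCB. Of the 13 oxidation targets 0 were higher and 1 lower in DCB than in PB at an adjusted p under 0.05, and of the 20 conjugation targets 0 were higher and 2 lower. Ces2c changed by 0.32, 1.54, 1.96 and 2.46 in DCB livers and 2.44, 3.03, 3.98 and 3.89 in PB livers, a difference of -1.77 ± 0.16 (adjusted p = 8.3e-20). Abcc3 changed by 0.09, 0.04, 0.94 and 1.89 in DCB livers and 0.34, 1.91, 2.19 and 2.39 in PB livers (-0.97 ± 0.14, adjusted p = 2.9e-07). For Ugt2b1, at 1.02 in DCB and 2.02 in PB, the difference was -0.996 ± 0.22 (0.0067), and for Cyp3a23-3a1, at 0.44 in DCB and 0.88 in PB, it was -0.44 (0.038). App, the amyloid precursor protein gene, was at 0.20 in DCB and 1.12 in PB (difference -0.92 ± 0.09, adjusted p = 2.9e-16), and Nat8f3, an N-acetyltransferase, at 0.25 in DCB and 1.05 in PB (-0.81, adjusted p = 0.0022).

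The enzymes of fatty acid oxidation ran the other way. Eci1 changed by 1.07, 1.66, 0.78 and 1.24 in DCB livers and 0.11, -0.25, 0.13 and -0.34 in PB livers, a difference of 1.28 ± 0.17 over the 4 days (adjusted p = 1.3e-09). Ehhadh was at 0.77 in DCB and -0.01 in PB (difference 0.77 ± 0.17, 0.0079), and Ech1 at 0.68 in DCB and 0.01 in PB (0.67 ± 0.15, 0.0069). Cyp4a1 was at 0.39 in DCB and -0.25 in PB (0.64 ± 0.16, 0.031), a call that was lost without 17 single arrays. Of the 37 PPARA targets 9 were higher in DCB than in PB at an adjusted p under 0.05 and 0 lower, and 32 differences were positive, with a median of 0.223 against 0.005 over all genes. The others of the 9 were Acadl (0.39), Hadhb (0.38), Slc25a20 (0.36), Slc27a2 (0.25) and Acadm (0.25). Against its own vehicle, PB raised 2 of the 37 and lowered 1, with a median of 0.009, while 3.51% of all genes rose and 2.42% fell in PB.

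Muscle and pancreas markers had means of at most 5.87 and 6.59 in PB arrays, but 1 vehicle array of PB (CMC_1B, day 7, array 3) stood apart at 8.56 and 10.01. Without it the direct test called 12 probe sets again, PPARA targets higher in DCB stayed at 9, and 75 probe sets were called in PB, of which 16 were shared with DCB (21.3%).

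**Figure D4:**
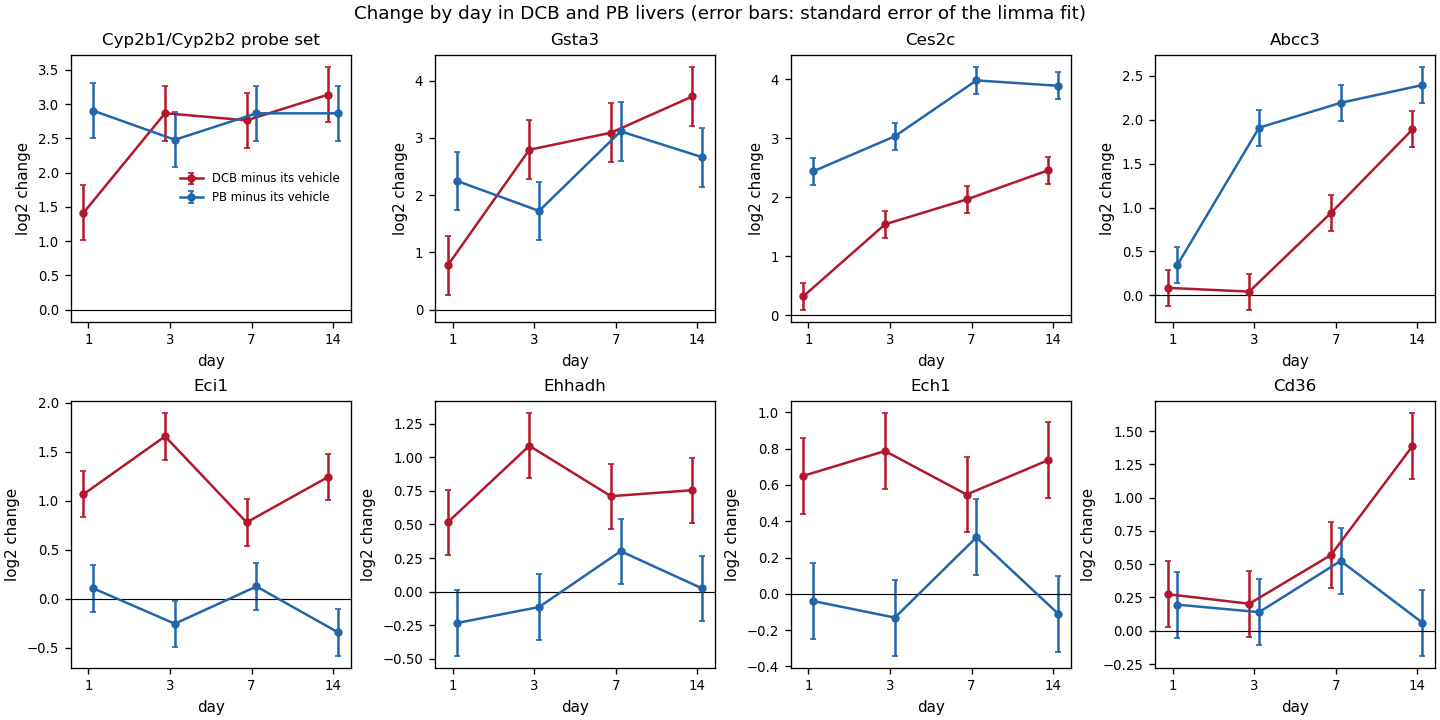
Log2 change against the own vehicle (y axis) by day (x axis) for 8 probe sets, DCB in red and PB in blue, with points as the difference of 3 against 3 arrays and bars as the standard error of the limma fit. Eci1 lay between 0.78 and 1.66 in DCB and between -0.34 and 0.13 in PB, whereas Ces2c was lower in DCB than in PB on each day.

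**Figure D5:**
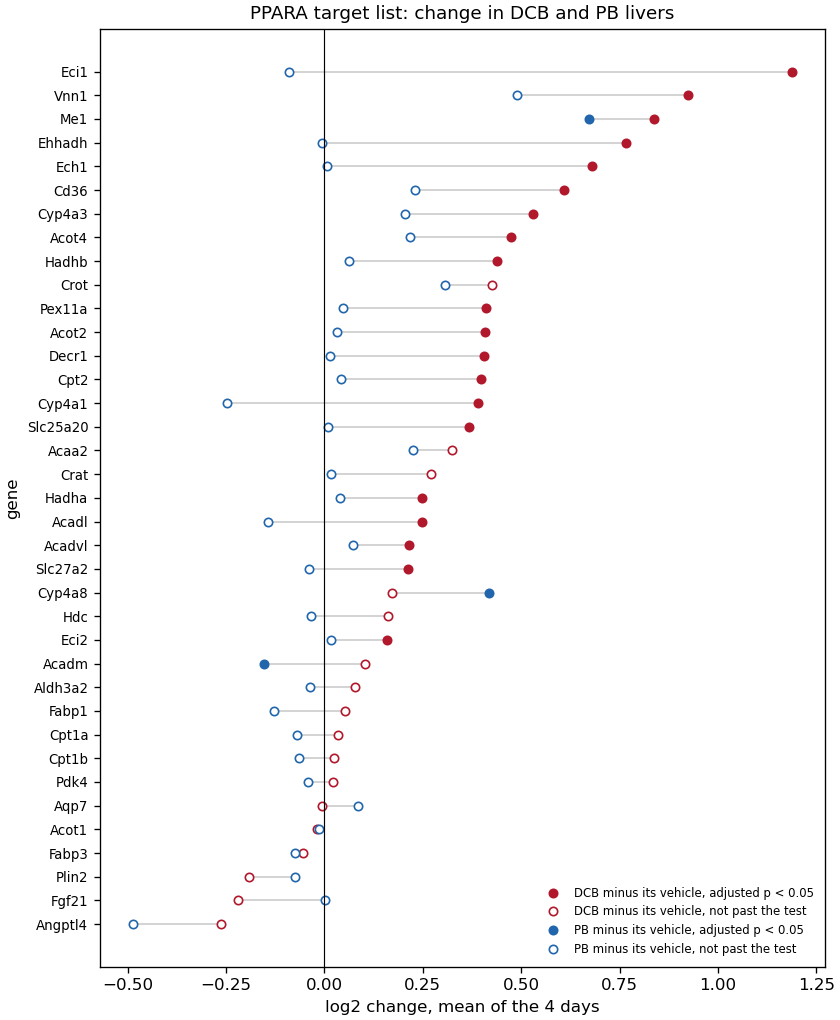
Mean log2 change over the 4 days (x axis) of the 37 measured PPARA targets (rows, sorted by DCB), DCB in red and PB in blue, filled where the adjusted p was under 0.05. In DCB 20 points are filled on the right of 0 and none on the left, and in PB 2 on the right and 1 on the left.

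CPA, a steroidal antiandrogen that activates PXR in the rat, shares the CO_1A vehicle arrays with DCB, which cancel in the direct test of DCB against CPA over the 4 days. It called 225 probe sets (1.42%), 158 higher and 67 lower in DCB. The 5 largest differences upwards were genes low in CPA livers. Crot, the peroxisomal carnitine octanoyltransferase, had a lowest, median and highest level of 10.66, 11.16 and 11.77 over the 12 DCB arrays and 7.56, 8.68 and 9.71 over the 12 CPA arrays, against 10.49, 10.79 and 11.02 in vehicle arrays. The groups did not overlap (difference 2.42 ± 0.15, adjusted p = 2.3e-40). Nrep (1.90 ± 0.21), the taurine transporter Slc6a6 (1.73 ± 0.19), the alarmin Il33 (1.63 ± 0.13) and the fatty acid binding protein Fabp7 (1.58 ± 0.17) were likewise higher in DCB. Their changes against vehicle were -0.39, -0.20, -0.13 and -0.07 in DCB livers, none past the test, and -2.29, -1.93, -1.76 and -1.65 in CPA livers.

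The largest differences downwards were genes that DCB left near vehicle. Sult2a2, a hydroxysteroid sulfotransferase, had a lowest, median and highest level of 4.71, 4.83 and 4.92 in DCB arrays and 4.97, 6.98 and 9.70 in CPA arrays, against 4.77, 4.83 and 5.00 in vehicle arrays (difference -2.25 ± 0.13). Sult2a6, its relative, differed by -1.95 ± 0.25, Cyp2c12, a P450 typical of female rat liver, by -2.06 ± 0.24, and the sterol exporter Abcg5 by -2.04 ± 0.16. The changes against vehicle of these 4 genes in DCB livers were between -0.36 and -0.02, none past the test. By the probe set that represents each gene, Ces2c was the only one of the 10 that DCB raised. It rose by 1.57 ± 0.11 in DCB livers and 3.27 in CPA livers (difference -1.69 ± 0.11). Crot changed by 0.43 against vehicle in DCB livers (adjusted p = 0.085), while its dimmer probe set rose by 0.58 (0.013). For the Cyp2b1/Cyp2b2 probe set the difference was 0.56 (adjusted p = 0.024), higher in DCB.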

How the data were processed

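RNA from rat liver was hybridised to Affymetrix RAE230A arrays, 1 per animal. The study's methods name Microarray Suite 5.0 for the images and, for background correction, normalization and summarization, the Robust Multi-chip Average (RMA) of the affy package, with no version stated here. The deposited values are log2 levels of 15866 probe sets on 421 arrays, normalized by the authors, with 0 missing. RMA draws arrays towards 1 distribution, so a shift of all genes could not be seen. The number of arrays limits the precision.

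From the deposited log2 values, limma 3.58.1 (R 4.3.3) was fitted with 1 mean for each of 136 groups of all 421 arrays (285 residual degrees of freedom, 4.67 prior). Contrasts were DCB minus CO_1A per day and over the 4 days, the F test between days, and DCB against PB and CPA. P-values were adjusted by Benjamini-Hochberg over all probe sets, and those called had an adjusted p under 0.05 and at least 1.5-fold. "Rose" and "fell" without "called" mean the adjusted p alone. The spread behind the p-values is that between chosen animals, pooled over all 136 groups. It is not taken from the 3 against 3 arrays of a day alone. In fits of the own groups alone, 56 of 59 results on named genes stayed called.

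GEO's probe annotation, updated by gene ID to current symbols, gave 12783 probe sets 1 symbol, 312 several and 2771 none, hence 10411 genes, each represented by its probe set of highest mean. Named genes were, per day, the 5 largest called rises and falls without overlap, the 15 largest of each over the 4 days, those differing between days, the 5 largest in each direction against PB and CPA, and members of the lists. The genes and the 36 lists were chosen with earlier results of these data known. On simulated data for day 14, the fit called 98 of 100 probe sets changed 2-fold, 97 of 100 changed 4-fold and 0 of 15666 unchanged. The noise was independent and drawn from the fit's own spread, so this checks the fit and not its power in these data. In the data Fabp5, at -1.54 at day 14, was not called by the limma fit (adjusted p = 0.073). Alternatives were a filter at a mean level of 6, quantile normalization, fits of the own groups alone, a replicate block, a trended prior, other fold minimums, another vehicle group (CO_1M) and leaving out arrays. The arrays left out for PB, CPA and list medians were chosen after seeing the data.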

Additional observations from a re-analysis of the deposited data

Results flagged for a closer look

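The changes of 2 genes differed between days by the F test of the limma fit. The change of Ces2c at day 14 was 2.14 ± 0.32 above that at day 1, and its changes were 0.32, 1.54, 1.96 and 2.46 at days 1, 3, 7 and 14 (adjusted p of the F test = 5.6e-06). The change of Abcc3 at day 14 was 1.80 ± 0.29 above that at day 1, with changes of 0.09, 0.04, 0.94 and 1.89 (1.3e-06). Every day has other animals in both groups, so day and trio of animals cannot be told apart.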

How the results depend on the processing

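The counts of called probe sets (3, 15, 8 and 32 at days 1, 3, 7 and 14, 23 over the 4 days, 2 between days, 12 against PB and 225 against CPA) moved most with the fold minimum and the vehicle. Without a fold minimum they were 7, 33 and 65 at days 1, 3 and 14, 483 over the 4 days, 46 against PB and 4580 against CPA. With a 2-fold minimum they were 7, 5 and 15 at days 3, 7 and 14, 9 over the 4 days, 3 against PB and 54 against CPA. Against the CO_1M corn oil arrays, another vehicle group of the same days, they were 56, 33, 26 and 50 at days 1, 3, 7 and 14 and 49 over the 4 days, so that day 1 had the most calls. Quantile normalization gave 5 at day 7. The cause of these differences, apart from the minimum itself, was not tested. Leaving out 1 array at a time gave 0 to 2 at day 1, 4 to 12 at day 3, 4 to 7 at day 7, 22 to 27 at day 14, 20 to 28 over the 4 days, 2 to 3 between days, 11 to 14 against PB and 213 to 244 against CPA. At day 1 0 were left without vehicle array 2 or 3 or DCB array 2 or 3, and at day 3 4 were left without DCB array 3 and 6 without vehicle array 3.

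Same-numbered arrays did not deviate together (mean correlation -0.004, 2 of 12 pairs over 0.1, 5 of 12 DCB arrays closest to their own number), so the numbers do not pair the animals. The replicate block gave 4, 14, 8 and 38 at days 1, 3, 7 and 14, 26 over the 4 days and 1 between days. Of 59 results on named genes under 1699 alternatives, 1602 stayed called, 97 lost the call and 0 reversed. Leaving out 1 array accounts for 84 of these, in 12 results, namely Cyp4a1 against PB (17), the 3 calls of day 1 (6, 6 and 5), Aldh1a1 at days 3 and 7 (6 each), Akr7a3 (2) and Icoslg (5) at day 3, Abcc3 at day 7 (5), and Oat (11), C8b (10) and Cd36 (5) over the 4 days. Against CO_1M, Tsc22d3 (-0.34), Lpin1 (-0.24) and Nupr1 (-0.41) were not called.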

Other observations

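The Ugt2b probe set, a glucuronosyltransferase, had levels of 2 kinds. In DCB arrays 1 of 12 was at 6.09 and the others at 11.84 to 12.41, and in vehicle arrays 3 of 12 were at 5.53 to 6.05 and the others at 11.79 to 12.43. Over all arrays of the series 97 were at 4.79 to 8.19 and 324 at 9.89 to 12.5, split at a level of 9 that was chosen after seeing the values. It was left out of the plot of lists for this reason.

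Changes of all probe sets correlated between days by 0.22 (days 1 and 3), 0.21 (1 and 7), 0.23 (1 and 14), 0.40 (3 and 7), 0.39 (3 and 14) and 0.33 (7 and 14). These are correlations across genes, which are not replicates, and no array is shared between days.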
